A study of Mus musculus with 24 samples.

Results

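The genes described here encode the protein subunits of the cytoplasmic ribosome. They were taken by symbol, as every gene of the count table whose name is Rpl or Rps followed by a number with at most 1 of the letters a, l or x, or is one of Rplp0, Rplp1, Rplp2 and Rpsa. This gave 81 of 24421 genes, 49 of the large subunit (Rpl) and 32 of the small subunit (Rps). Of these, 79 had enough counts to be tested, and Rpl26 and Rpl10l did not. RNA-seq was done on bone marrow mononuclear cells of mice carrying Shp2 E76K, an activating form of the phosphatase encoded by Ptpn11 that is used to model juvenile myelomonocytic leukemia. All 4 groups carry Shp2 E76K, so there is no group of wild-type mice among them. The mice were given vehicle, the BTK inhibitor ACP196, the inhibitor ACP319 of the PI3K isoform p110δ, or both inhibitors, over 3 weeks, and each group has 3 specimens. Specimens 1 to 3 are vehicle, 4 to 6 the BTK inhibitor, 7 to 9 the PI3K inhibitor and 10 to 12 the combination. The labels give no age, sex, dose or promoter for the Shp2 allele, and do not say that each specimen number is 1 mouse, so p-values measure only the spread between these specimens.

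Each ribosomal protein sits at a fixed place in 1 of the 2 subunits, and most are needed in equal number per ribosome. Their mRNAs are short, abundant and begin with a tract of pyrimidines, the 5′ terminal oligopyrimidine (TOP) motif, through which PI3K, AKT and mTOR signalling controls their translation more than their amount. In bone marrow these genes are known for Diamond-Blackfan anemia, in which loss of 1 copy of a ribosomal protein gene impairs the making of red cells, and for the 5q- syndrome, in which RPS14 is lost.

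Runs of pyrimidines stood at the annotated transcription starts of some members. The 5 windows of 30 bases printed next span the RefSeq start with 15 bases on either side (build GRCm38.p6, 5′ to 3′ on the gene's strand), and the longest run of C and T is in capitals. Rpl7a and Rpl35 are shown for long runs, Rplp2 and Rpl38 because the interaction described further on was largest there among the genes that passed its test, and Rps6 because it is the substrate of the mTOR-dependent S6 kinases.
Rpl7a: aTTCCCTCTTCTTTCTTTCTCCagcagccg
Rpl35: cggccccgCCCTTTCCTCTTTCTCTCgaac
Rplp2: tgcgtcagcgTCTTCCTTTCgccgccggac
Rpl38: agcggaagcctcgTTCTTTCCCCgttctct
Rps6: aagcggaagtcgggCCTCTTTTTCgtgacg
They lie at chr2:26910792-26910821 (Rpl7a, plus strand), chr2:39005117-39005146 (Rpl35, minus), chr7:141447636-141447665 (Rplp2, plus), chr11:114668565-114668594 (Rpl38, plus) and chr4:86857353-86857382 (Rps6, minus). Promoter windows were found for 60 of the 81 genes, with 72 annotated starts. A run of 8 or more C or T in the 30 bases was present at 27 of these 72 starts (37.5%) and at 11.9% of the 32779 starts of other genes. In windows of 300 bases, CCGGAAG on either strand was found at 36.1% of member starts and 8.8% of others, and TATAA on either strand at 23.6% and 24.9%. These are matches of letters only, and annotated starts can lie off the tract.

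Total counts lay between 8993950 and 22154833 per specimen. Specimen 5 (BTK inhibitor) stood apart, with the lowest total. Rn45s, the precursor of ribosomal RNA, took 15.4% of its counts and between 0.203% and 0.773% in the rest. The title of specimen 6 carries another day (30 in place of 24), so results within that group are given without each of these 2. Libraries also differed in how level depended on gene length. Long genes were relatively high in specimens 1, 2, 3, 6, 10, 11 and 12 and relatively low in the rest, with slopes from -0.38 to 0.40 log2 CPM per doubling of length. Ribosomal protein genes are short (median 710 bases, against 2194 over the table), so each result is set beside the 2043 other tested genes between 449 and 1456 bases, called genes of like length here. In bulk RNA, fewer cells of a type and less RNA per cell cannot be told apart.

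Counting limits touch some members. Rpl26 had no count in any specimen, which allows up to 0.334 CPM (counts scaled to the library total) in the shallowest one. Over 95.8% of its exon bases it overlaps Gm15772 on the same strand. Rpl30, Rps27 and Rpl34 overlap another annotated gene over 76.0%, 60.0% and 59.9% of their bases, and had only 918, 495 and 2081 counts over all 12 specimens, while Rpl14 had 230689. The 4 overlapping partners had no counts, so the levels of these 4 genes are uncertain. On the opposite strand 6 members overlap another gene, the longest overlap being 964 bases in Rpl5, and reads of such pairs cannot be told apart. Ribosomal protein genes also have many processed copies in the genome. Of 80 members with a transcript in GENCODE M21, 77 shared at least one 50-base stretch with a transcript of another gene, and 20 shared more than 50% of their stretches, among them Rps6 at 84.6%. The sources used here do not give how reads with several locations were counted.

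Measured per length, as TPM (counts per base of gene length, scaled to the same total in each specimen), ribosomal protein genes were among the most abundant transcripts of these cells: 56 of the 100 genes with the highest mean TPM were members. In vehicle, the highest levels were those of Rps9 at 3715 ± 480 TPM (SD, n = 3), Rps12 at 3526 ± 800 and Rpl32 at 3160 ± 412. These 3 overlapped, and of 79 pairs of neighbours in the vehicle order only 3 had specimens that did not overlap. Rps9 and Rps12 are proteins of the small subunit and Rpl32 one of the large subunit. The order hardly moved with treatment, with a Spearman correlation across the 81 genes of 0.97 between vehicle and the PI3K inhibitor and 0.99 between vehicle and the combination. For specimen 5 alone it was 0.76. At the other end 8 members had under 100 TPM in vehicle. Besides the 4 overlapped genes they were Rps4l at 27.5 ± 15.4 TPM, Rpl3l at 1.53 ± 0.80, Rpl39l at 0.47 ± 0.44 and Rpl10l, which had 1 count in all. Rpl3l is the paralog of Rpl3 used in heart and skeletal muscle, and Rpl10l and Rpl39l are paralogs used in the testis.

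Summed over the 81 genes, ribosomal protein genes took 5.68%, 4.52% and 6.67% of all counts in vehicle specimens 1 to 3. They took 9.70%, 15.2% and 7.58% with the BTK inhibitor, and 9.65%, 12.1% and 14.96% with the PI3K inhibitor. The combination specimens were at 8.23%, 6.57% and 6.63%. All specimens given a single inhibitor lay above all vehicle specimens, while the combination overlapped vehicle. The counting error was small beside this spread, with 95% exact binomial (Clopper-Pearson) intervals of at most ± 0.0234 percentage points, which cover counting error only. Group means were 5.62 ± 1.07% (SD, n = 3) in vehicle, 10.8 ± 3.91% with the BTK inhibitor, 12.2 ± 2.66% with the PI3K inhibitor and 7.14 ± 0.94% for both together. Without specimen 5 the BTK inhibitor mean was 8.64% over 2 specimens.

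**Figure D1:**
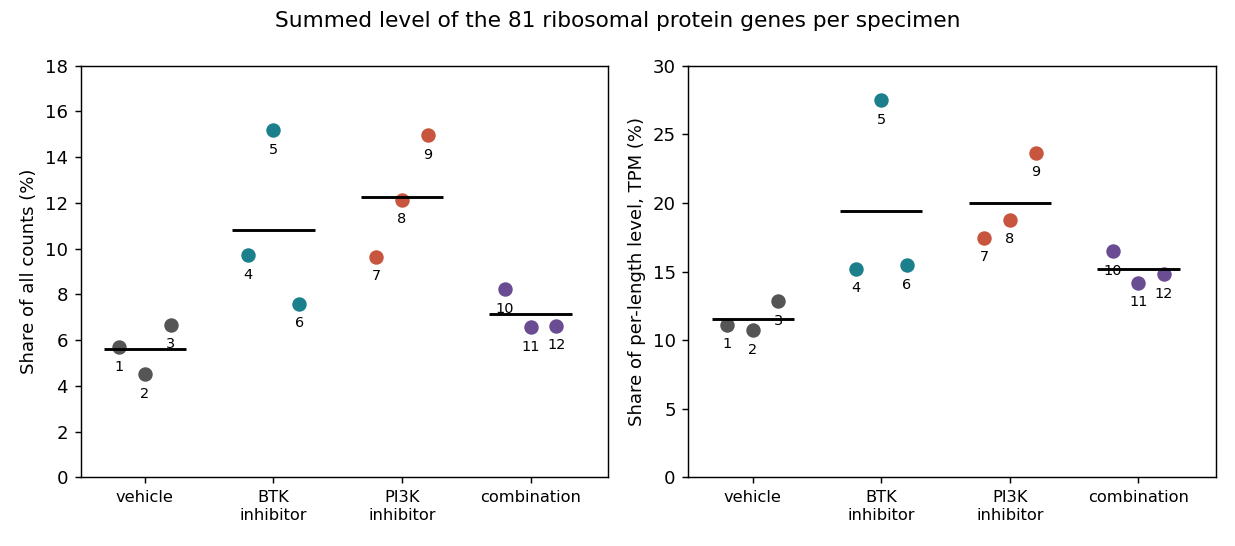
Share of the 81 ribosomal protein genes in each specimen, in percent of all counts (left) and in percent of the summed per-length level, TPM (right). Points are specimens with their numbers and bars are group means (n = 3). Vehicle specimens lie between 4.52% and 6.67% of counts, below every specimen of the single inhibitors, and on the per-length scale below every treated specimen.

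On the per-length scale the same sum was 11.1%, 10.7% and 12.8% in vehicle. It was 15.2%, 27.5% and 15.4% with the BTK inhibitor and 17.4%, 18.8% and 23.7% with the PI3K inhibitor. The combination was at 16.5%, 14.2% and 14.8%, here above all vehicle specimens. Another denominator, the counts of the members and the genes of like length together, gave the same ordering for vehicle: 19.2%, 20.6% and 22.2% against 23.4% to 34.9% in the 9 treated specimens.

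The genes of like length moved with the ribosomal protein genes. For each gene, log2 CPM (counts relative to the library total, scaled by TMM factors) was taken relative to its mean over the 12 specimens. The median over the 79 tested members was -0.64, -0.996 and -0.43 in vehicle, 0.48, 1.20 and -0.33 with the BTK inhibitor, 0.13, 0.85 and 1.11 with the PI3K inhibitor and -0.17, -0.59 and -0.59 under both. The median of the genes of like length was -0.28, -0.70 and -0.20 in vehicle and 0.43, 0.77 and -0.27 with the BTK inhibitor. It was 0.08, 0.64 and 0.65 with the PI3K inhibitor and -0.16, -0.42 and -0.44 under both. Both medians had the same sign in all 12 specimens, and the members were further from 0 than the genes of like length in all 12.

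**Figure D2:**
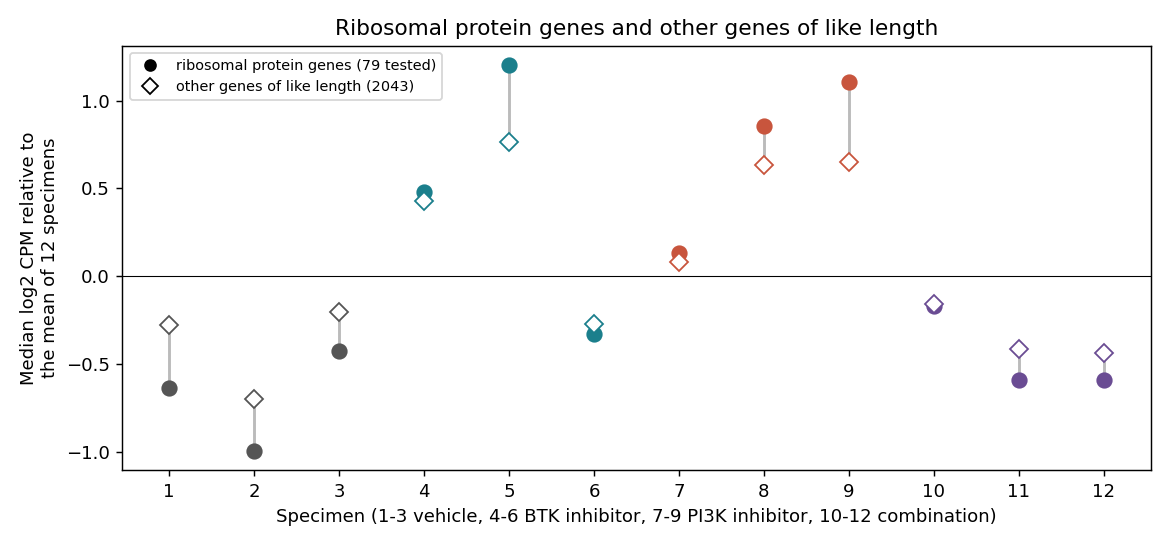
Median log2 CPM of the 79 tested ribosomal protein genes (filled circles) and of 2043 other genes of like length (open diamonds) in each specimen, relative to each gene's mean over 12 specimens. The circles lie beyond the diamonds, away from 0, and are lowest relative to them in vehicle, by 0.36, 0.29 and 0.22 on the log2 scale.

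The remaining gap between members and genes of like length was -0.36, -0.29 and -0.22 in vehicle. It was 0.05, 0.43 and -0.06 with the BTK inhibitor, 0.05, 0.22 and 0.46 with the PI3K inhibitor and -0.01, -0.17 and -0.15 under both. Vehicle was lowest and overlapped no treated group. The 87 genes of like length with a mean level at or above the 10th percentile of the members are a closer but small set. They are called genes of like level here. Against them the gap was -0.70, -0.47 and -0.33 in vehicle and -0.17 to 0.86 in the treated specimens.

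Inhibition of p110δ alone is shown by the PI3K inhibitor against vehicle. Ribosomal protein genes rose: 41 of the 79 tested were higher and none lower (edgeR quasi-likelihood test, Benjamini-Hochberg adjusted over 12742 genes, threshold 0.05), while 4.84% of all tested genes and 14.7% of the genes of like length were higher, and 5.82% of all tested genes were lower. The median log2 difference was 1.42 for the members, 0.88 for genes of like length and -0.01 over all tested genes. All 79 members were positive, and in 73 the PI3K inhibitor specimens lay above all vehicle specimens, as they did for 24.9% of all tested genes and 61.6% of those of like length. The 41 members called had log2 differences from 0.96 to 1.67.

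The largest difference among the called members was that of Rps27l, a paralog of Rps27 induced by p53 (chromosome 9, mm10, 66946118 to 66949509). It stood at 89.3, 41.5 and 108 CPM in vehicle and at 137, 244 and 377 CPM with the PI3K inhibitor (log2 difference 1.67 ± 0.45 SE, adjusted p = 0.0425, edgeR quasi-likelihood test). The groups did not overlap, and specimen 7 was the lowest of the treated ones. Rpl22, a large subunit protein on which developing T cells depend, was at 346, 247 and 435 CPM in vehicle and 606, 1096 and 1403 CPM with the inhibitor (1.59 ± 0.46, adjusted p = 0.0454, edgeR). Rpl14 was at 531, 470 and 692 CPM and then at 1062, 1763 and 2230 CPM (1.58 ± 0.44, adjusted p = 0.0437, edgeR). In each of these, the lowest treated value was that of specimen 7 and the lowest vehicle value that of specimen 2, and the groups were apart.

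The others named by size were Rpl36 at 1.53, Rps20 at 1.52, Rps23 at 1.51, Rpl12 at 1.50 and Rps10 at 1.47 (log2 differences). Rps23 lines the decoding centre of the small subunit, Rpl12 sits at the base of the stalk that recruits elongation factors, and Rps10 is mutated in Diamond-Blackfan anemia. Rps23 stood at 705, 521 and 798 CPM in vehicle and 1224, 2156 and 2380 CPM with the inhibitor, with no overlap. Larger differences with larger standard errors were measured for members that did not pass. Rpl41, the shortest ribosomal protein, was at 803, 505 and 1029 CPM against 1536, 3538 and 4245 CPM (2.00 ± 0.69, adjusted p = 0.0673, edgeR). Rpl39l had 57 of its 109 counts in specimen 8, and a log2 difference of 2.61 ± 1.38 (adjusted p = 0.191, edgeR).

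Rps6, the S6 kinase substrate, rose from 632, 489 and 708 CPM to 1016, 1297 and 1727 CPM (1.14 ± 0.31, adjusted p = 0.0425, edgeR). Rps19, the gene most often mutated in Diamond-Blackfan anemia, rose from 484, 325 and 578 CPM to 776, 1219 and 1580 CPM (1.37 ± 0.37, adjusted p = 0.0423, edgeR). Rpl3, a protein near the peptidyl transferase centre, rose by a log2 difference of 1.13. Rpsa, the small subunit protein first described as a laminin receptor, went from 1787, 1497 and 1827 CPM to 3214, 5806 and 5092 CPM and did not pass (1.47 ± 0.56, adjusted p = 0.0847, edgeR), although its groups did not overlap. The 6 members whose PI3K inhibitor specimens were not all above vehicle were Rpl29, Rpl30, Rpl39l, Rpl3l, Rps27 and Rps4l. Rpl29 was at 265, 136 and 36.5 CPM in vehicle and 226, 539 and 121 CPM with the inhibitor, with low values in specimens 3 and 9.

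Specimen 5 is in neither group of this comparison but enters the shared estimate of spread. Without it 74 members were called higher, with a median of 1.43, where 17.1% of all tested genes and 48.9% of those of like length were called higher. The 74 included all of the 41. The 5 that still did not pass were Rpl29, Rpl39l, Rpl3l, Rps27 and Rps4l. The count also rested on single libraries, both of the groups compared and of the others. It fell to 0 without any one of vehicle 1, 2 or 3, PI3K inhibitor 8 or 9, or combination 10, 11 or 12. In those fits no gene of the table was called either. The member count was 72 without BTK inhibitor 6 (among 3392 genes in either direction). The median log2 difference stayed between 1.22 and 1.65 over these omissions.

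How much of the difference went with gene length depended on the length used. An offset that removes each library's own smooth relation of level to the table's gene length left a median of 0.42 for the members and 0.06 for the genes of like length. None of the 79 was then called by the edgeR quasi-likelihood test, with 17 higher at an unadjusted p under 0.05, beside 11.1% of all tested genes and 7.68% of those of like length. No gene of the table was called either. With this offset and without specimen 5, 27 members were higher with a median of 0.43, as were 9.56% of all tested genes and 6.74% of those of like length, and 9 of the 27 were among the 41. The choice of length matters for these genes. The table's length is that of all exons merged. Its median over the tested members is close to that of their protein-coding GENCODE transcripts (710 and 711.5 bases). Over all tested genes its median is longer (2835 bases, and 2087 for the transcripts). Rps15a, a small subunit gene, has 5134 bases in the table and 638.5 as a transcript. With an offset on transcript length, added after the data were seen, the member median was 0.87 and that of genes of like length 0.44. None was called by edgeR in all 12 specimens. At an unadjusted p under 0.05, 60 were higher, beside 13.9% of all tested genes and 26.7% of those of like length. Without specimen 5, 68 were called, including 39 of the 41, where 13% of all tested genes and 26.2% of those of like length were higher.

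**Figure D3:**
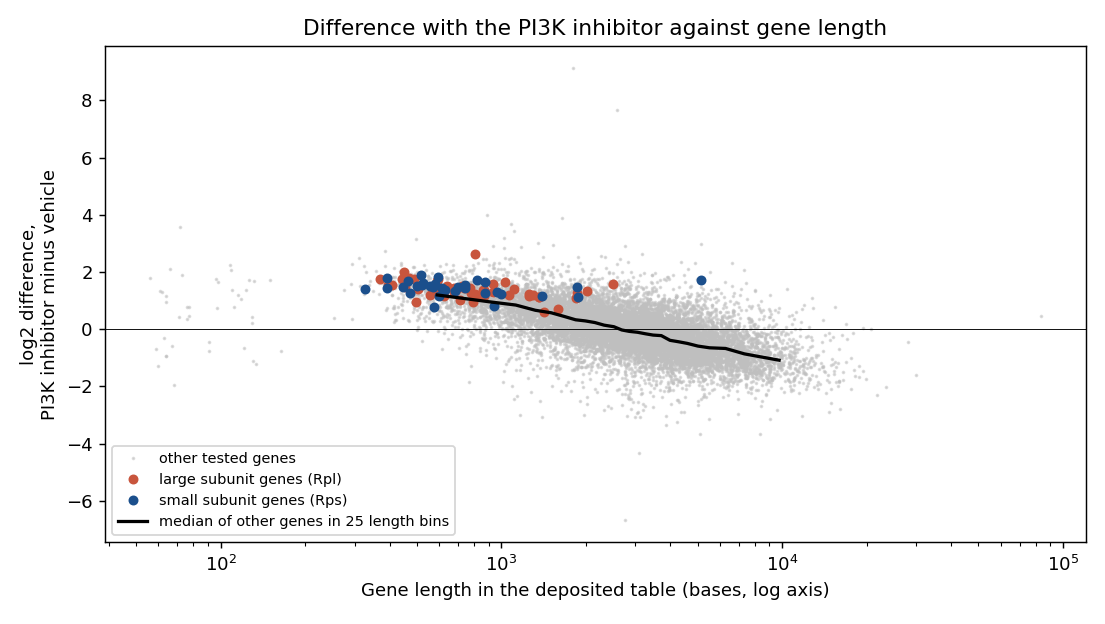
Log2 difference between the PI3K inhibitor and vehicle for each tested gene against its length in the table on a log axis. Red and blue points are large and small subunit genes, grey points other genes, and the black line their median in 25 length bins. Nearly all members lie on or above the line of other genes of their length.

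The table length offset is a function of that length alone, so how much it changes a member is set by the length. At the long end of the members it reduced the difference less. Rpl22 (2497 bases) was at 1.59 without and 1.58 with the table length offset, Rpl5 (2019 bases) at 1.33 and 1.11, and Rpsa (1861 bases) at 1.47 and 1.16 on the log2 scale. Rps15a went from 1.70 to 2.25 with the table length and to 1.14 with the transcript length. Among short members Rpl36 (407 bases) went from 1.53 to 0.38 and Rps20 (502 bases) from 1.52 to 0.38. Among the 58 tested members with a promoter window, the median was 1.46 in the 26 with a run of 8 or more pyrimidines and 1.40 in the 32 with shorter runs.

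**Figure D4:**
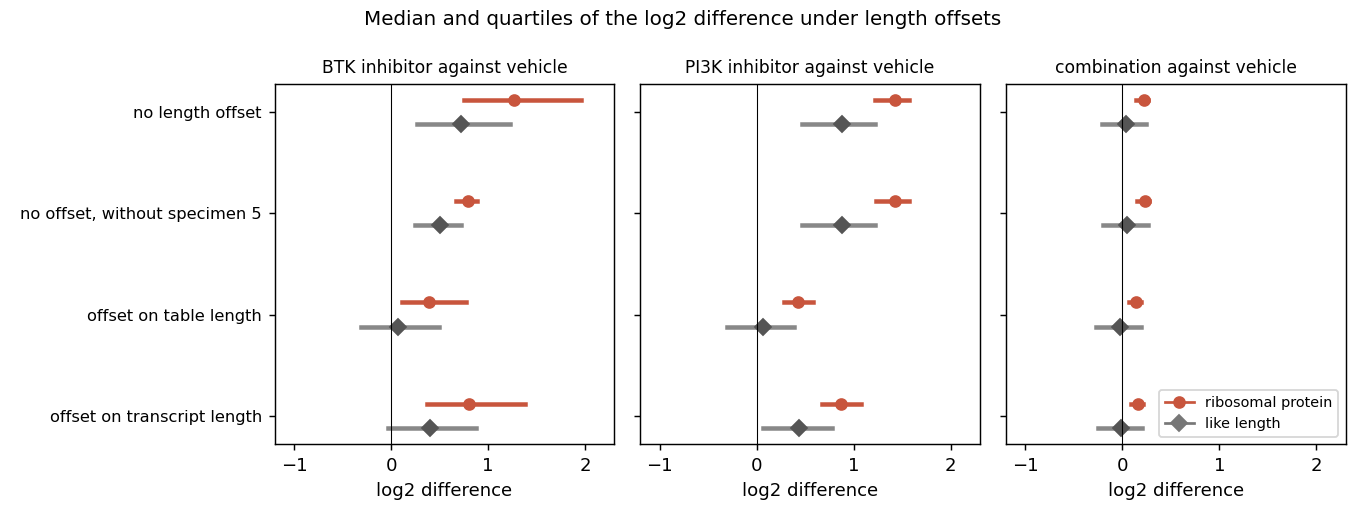
Median (marker) and quartiles (bar) of the log2 differences from vehicle for ribosomal protein genes (red) and other genes of like length (grey) under 4 settings. For the PI3K inhibitor the member median goes from 1.42 to 0.42 with an offset on table length and to 0.87 with an offset on transcript length, and stays above that of genes of like length in each.

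For BTK inhibition alone the specimens given ACP196 were set against vehicle. All 79 members were positive, with a median log2 difference of 1.27 beside 0.72 for genes of like length and -0.02 over all tested genes. None passed the edgeR quasi-likelihood test after Benjamini-Hochberg adjustment, and neither did any other gene (0% of tested genes called). Unadjusted, 62 members were higher at a p under 0.05, beside 15.8% of all tested genes and 44.7% of those of like length. DESeq2 called 52 members among 1085 genes in either direction, and limma voom 65 among 2979. In 57 members the BTK inhibitor specimens lay above all vehicle specimens, as they did for 8.92% of all tested genes and 19.6% of those of like length. Specimen 5 carried much of the size: without it the median was 0.79, with 76 members positive. No member then passed the edgeR test, which 0.00772% of all tested genes did. At an unadjusted p under 0.05, 55 members were higher, beside 5.14% of all tested genes and 16.3% of those of like length. Without specimen 5 and with the table length offset, no member passed the edgeR test either (0.00772% of all tested genes did). At the unadjusted threshold 7 members were then higher, beside 3.98% of all tested genes and 2.41% of those of like length. Without specimen 6, which leaves libraries of 1 title day, the median was 1.57 and 59 were called, among 3809 genes in either direction. That fit keeps specimen 5 with only specimen 4 beside it in the group, and no fit left out both 5 and 6.

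The P-stalk genes showed how far specimen 5 differed. Rplp0, Rplp1 and Rplp2 encode the acidic stalk that binds translation factors. Rplp2 (chromosome 7, mm10, 141447650 to 141451342) was at 455, 417 and 545 CPM in vehicle and 1382, 10916 and 602 CPM with the BTK inhibitor (log2 difference 3.19 ± 0.82, adjusted p = 0.136, edgeR). Rplp1 was at 645, 614 and 720 CPM and then 1849, 8680 and 978 CPM (2.54 ± 0.66, adjusted p = 0.136, edgeR). Rplp0 was at 1816, 1661 and 1886 CPM and then 3206, 3229 and 2502 CPM (0.74 ± 0.28, adjusted p = 0.153, edgeR). No BTK inhibitor specimen of the 3 genes overlapped vehicle, but in specimen 5 Rplp2 was 7.9 times as high as in specimen 4 while Rplp0 was equal. Without specimen 5 their log2 differences were 1.07, 1.10 and 0.67.

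The members did not move together in specimen 5. The standard deviation of their log2 levels, relative to each gene's mean, was 1.10 there and 0.19 to 0.36 in the other 11 specimens. Rplp2 was the highest at 3.55 and Rpl4, a protein of the exit tunnel, the lowest at -1.16. Rps12 was at 19387 CPM in specimen 5 and 708 to 5394 CPM elsewhere. Rpl10 was at 559 CPM, below all 11 others (653 to 2119 CPM), and Rpl4 at 716 CPM, also below the others (1263 to 2495 CPM). For Rps12 specimen 5 was thus the highest of the 12 and for Rpl10 and Rpl4 the lowest, and the high Rn45s share and low depth of the same library stand beside this. Their part in it was not tested.

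**Figure D5:**
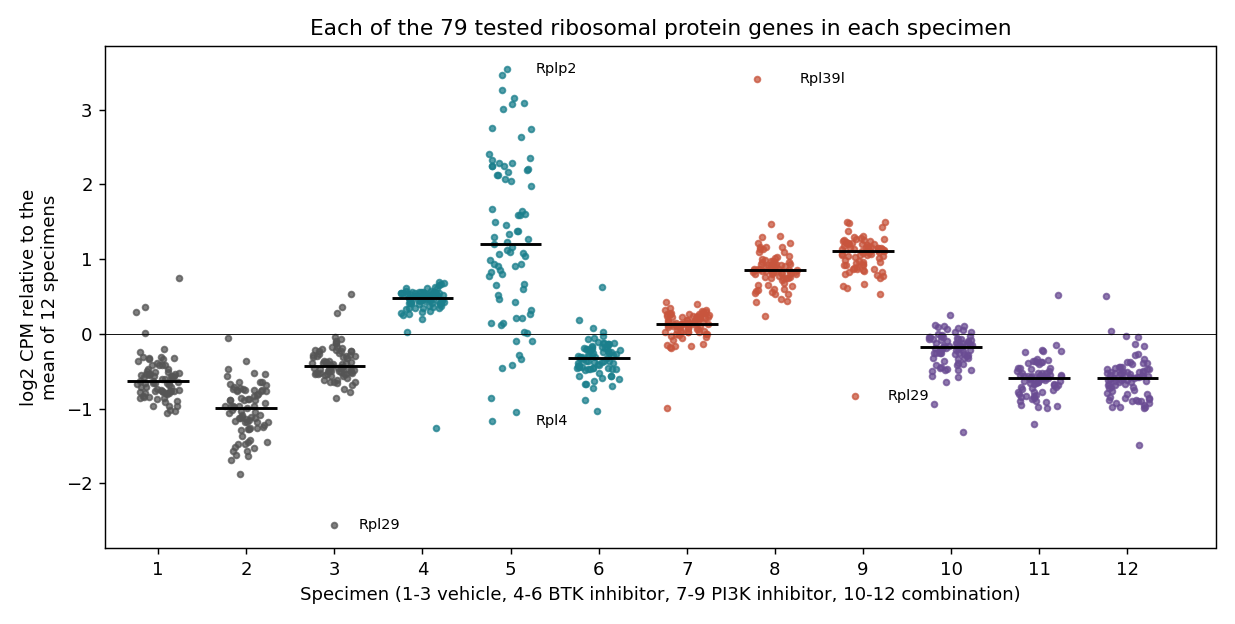
Log2 CPM of each of the 79 tested ribosomal protein genes in each specimen, relative to its mean over 12 specimens, with the median as a bar. In specimen 5 the members are spread from -1.16 (Rpl4) to 3.55 (Rplp2), and elsewhere they lie close together apart from single genes such as Rpl29 and Rpl39l.

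What both drugs did when given together is shown by the combination against vehicle. In CPM scaled by TMM factors, ribosomal protein genes lay near the vehicle levels. On the per-length scale their summed share was above all vehicle specimens (14.2% to 16.5% against 10.7% to 12.8%). The median log2 difference was 0.22, and 73 of 79 were positive. Beside it stood 0.04 for genes of like length and -0.38 for the 87 of these at like level. None passed the edgeR quasi-likelihood test, in which 0% of tested genes were called. None had an unadjusted p under 0.05, beside 3.41% of all tested genes higher and 1.51% lower. DESeq2 called 0 members, among 22 genes in either direction. Limma voom called 1 member, which was lower, among 1241 genes in either direction. In 2 members the combination specimens lay above all vehicle specimens in CPM, as for 9.32% of all tested genes. They were Rplp0, at 2791, 2005 and 2004 CPM (0.34 ± 0.28), and Rps2, a protein at the mRNA entry of the small subunit, at 1356, 1064 and 1161 CPM against 816, 1008 and 972 CPM (0.36 ± 0.28). The largest positive value was that of Rpl29 at 0.91 ± 0.60, from combination specimens at 207, 310 and 308 CPM; it was 0.45 without vehicle specimen 3 and 1.67 without vehicle specimen 1. The lowest members were Rps4l at -0.90 ± 0.52, Rps27 at -0.40 ± 0.46 and Rpl39l at -1.13 ± 1.72, all of low level.

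Between the combination and the single inhibitors the sign was negative. Against the PI3K inhibitor the median was -1.19 (genes of like length -0.84), with all 79 negative, and in 74 members the combination lay below all PI3K inhibitor specimens, as for 24.6% of all tested genes and 66.1% of those of like length. None was called by the edgeR quasi-likelihood test with 0% of tested genes called, although 73 were lower at an unadjusted p under 0.05, beside 14.7% of all tested genes and 52.9% of those of like length. DESeq2 called 43 members lower among 1226 genes in either direction, and limma voom 75 among 5337. Without specimen 5, 72 were lower past the threshold, as were 9.38% of all tested genes and 36.4% of those of like length. Of all tested genes, 9.92% were higher. Without specimen 6, 54 were lower, among 1798 genes in either direction. The members with the smallest p were Rpl11, Rpl5 and Rpl37. Rpl5 and Rpl11 form with 5S RNA the particle that binds the p53 regulator Mdm2. Rpl5 was at 1096, 1576 and 2277 CPM with the PI3K inhibitor and 895, 631 and 649 CPM with the combination (-1.19 ± 0.33, adjusted p = 0.125, edgeR). Rpl11 was at 749, 1089 and 1402 CPM and then 582, 415 and 433 CPM (-1.18 ± 0.30, adjusted p = 0.125, edgeR). All combination specimens were below all PI3K inhibitor specimens for both genes. With the table length offset the median was -0.32.

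Against the BTK inhibitor the median was -1.04 (genes of like length -0.69), and -0.55 without specimen 5 (genes of like length -0.44). None was called by the edgeR quasi-likelihood test (0% of tested genes), with 53 lower at an unadjusted p under 0.05, beside 13.9% of all tested genes and 41.2% of those of like length. DESeq2 called 29 members among 577 genes in either direction, limma voom 69 among 4978, and edgeR without specimen 6 52 among 3470. With specimen 5 left out, only 7 members were lower at an unadjusted p under 0.05 in edgeR. Beside them stood 4.27% of all tested genes and 14.2% of those of like length. The combination lay below all BTK inhibitor specimens in only 4 of the 79 members, Rpl36a, Rpl39, Rps28 and Rps29. It did so for 6.73% of all tested genes and 12.9% of those of like length. Rps29, a zinc-finger protein of the small subunit, was at 1014, 2721 and 436 CPM with the BTK inhibitor and 419, 320 and 336 CPM with the combination (-1.96 ± 0.52, adjusted p = 0.186, edgeR). Rpl4 was the only member with a positive value, 0.14 ± 0.34, and it was -0.17 without specimen 5.

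The interaction of the inhibitors asks whether the combination differs from the sum of the 2 single differences, and here it was negative for the ribosomal protein genes. The median was -2.39, beside -1.54 for genes of like length and 0.05 over all tested genes, and all 79 were negative. After Benjamini-Hochberg adjustment, the quasi-likelihood test of edgeR called 70 members, as it did 15.6% of all tested genes and 52.3% of those of like length in that direction. The comparisons with vehicle and the interaction share the vehicle specimens, and each is given by its own values. Among the 70 called, the largest were Rplp2 at -4.76 ± 1.12, Rpl38 at -4.70 ± 1.11, Rps21 at -4.52 ± 1.06 and Rps12 at -4.46 ± 1.05 (adjusted p = 0.0202 in each, edgeR). Rps14, Rpl35a, Rpl41 and Rplp1 followed, at -4.32, -4.23, -4.17 and -3.97. Rps14, the 5q- syndrome gene, was at 940, 603 and 998 CPM in vehicle, 2374, 14124 and 1099 CPM with the BTK inhibitor, 1666, 3877 and 3365 CPM with the PI3K inhibitor and 1253, 940 and 898 CPM under both. Rpl38, known for its part in the translation of Hox mRNAs, was at 205, 150 and 245 CPM in vehicle, 571, 4254 and 233 CPM with the BTK inhibitor, 342, 851 and 855 CPM with the PI3K inhibitor and 262, 205 and 196 CPM under both. The value of specimen 5 was 5.0 times the next highest. Rpl39l, with 109 counts in all, stood further out at -5.25 ± 2.23 and did not pass (adjusted p = 0.0905, edgeR).

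Without specimen 5 the interaction was still called for 72 members, which included all of the 70, with a median of -1.94. In that direction 14.3% of all tested genes and 49.5% of those of like length were called. Rplp2 then stood at -2.64 and Rpl38 at -2.63. With the table length offset none was called by edgeR (0.00785% of tested genes) and the median was -0.67. At an unadjusted p under 0.05, 41 members were lower, beside 18% of all tested genes and 17.4% of those of like length. With that offset and without specimen 5 there were 5, namely Rpl21, Rpl22, Rpl5, Rps15a and Rpsa, each of 1856 bases or more in the table, while 2.33% of all tested genes were called lower. The table length sets this offset, and for Rps15a it is 5134 bases against 638.5 as a transcript. With the transcript length offset 49 of the 70 were called and the median was -1.50 (7.7% of all tested genes and 18.7% of those of like length). Without any one of vehicle 2, PI3K inhibitor 8 or 9, or combination 11 or 12 none was called.

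The calls were also counted by part of the ribosome. With the PI3K inhibitor, 27 of 47 large subunit genes (median 1.37) and 14 of 32 small subunit genes (median 1.47) were higher. Beside all counts in this paragraph stand 4.84% of all tested genes and 14.7% of those of like length called higher. Of proteins shared with bacteria and archaea 18 of 32 were higher (median 1.43), and of the other members, leaving out the paralogs, 22 of 43 (1.40). Of the Diamond-Blackfan anemia genes 10 of 18 were higher (1.42), as were Rpl5 and Rpl11 of the 5S particle, and 1 of the 3 P-stalk genes, Rplp0. None of these lists had a member called lower, and these counts describe lists chosen with results known. With the offset on table length or on transcript length, no member was called in this comparison over all 12 specimens.

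Other genes of the translation machinery were read against the 4.84% of all tested genes that were called higher and 5.82% called lower with the PI3K inhibitor. Rack1 (listed as Gnb2l1), a scaffold protein on the small subunit outside the naming rule, was at 1236, 1046 and 1357 CPM in vehicle and 2109, 2742 and 3225 CPM with the PI3K inhibitor (log2 difference 1.15, adjusted p = 0.0407, edgeR quasi-likelihood test). Fau, whose protein carries the ribosomal part Rps30, was at 740, 457 and 768 CPM in vehicle and 1124, 2643 and 1992 CPM with the PI3K inhibitor, and at 8978 CPM in specimen 5. Of 10 elongation genes, whose mRNAs are mostly TOP mRNAs, 5 were higher (median 1.04, and 0.57 with the table length offset). The shares were nearer to the background in other lists. Of 27 initiation factors 3 were higher (median 0.55), of 37 ribosome assembly factors 2 (0.63) and of 14 RNA polymerase I genes 1 was higher and 1 lower (0.52). The 17 genes that control TOP mRNAs, such as mTOR components, are long (median 4688 bases). Of these 1 was higher and 2 were lower, with a median of -0.53. With the table length offset that median was -0.22.

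Markers of the cell types in the marrow were summed beside these results. The neutrophil list (12 genes) was at 89468 to 115009 CPM in vehicle, 83934 to 216934 with the BTK inhibitor, 103097 to 201147 with the PI3K inhibitor and 60992 to 77986 under both. The labels name mononuclear cells, and this sum was the highest of the marker lists in every group. Erythroid markers (11 genes) were at 921 to 3342 CPM in vehicle, 2327 to 3151 with the BTK inhibitor, 3526 to 6754 with the PI3K inhibitor and 4638 to 4956 under both. With the PI3K inhibitor 4 of the 11 were higher (median 1.16), and monocyte markers were lower in 4 of 9 (median -1.01), beside 4.84% of all tested genes higher and 5.82% lower. Myeloid precursor, B-lineage, T and NK cell and stem cell lists, of 6 to 11 genes, had 1 gene called, which was higher and of the B lineage. No marker in these lists was at 0 in a whole group, but the hemoglobin genes Hba-a1, Hba-a2, Hbb-b2, Hbb-bs and Hbb-bt were at 0 in all 12 specimens. Erythroid markers were high in the combination, where the ribosomal protein genes were near vehicle in CPM. The part of cell makeup in any of these results was not tested.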

How the data were processed

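Bone marrow mononuclear cell RNA was sequenced in 12 specimens, each listed as 2 samples and given as 1 column of the deposited table. The deposited values are counts of reads per gene, made by the authors with STAR and featureCounts on mm10 per the submitters' processing notes. Versions and strand setting are not stated in what was used here, so antisense reads cannot be told apart. Depth is the column total, 8993950 to 22154833 counts. The deposited table's Length column, which is not a measurement of these samples, gives the bases of all exons merged.

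Counts were tested in R 4.3.3 with edgeR 4.0.16 (filterByExpr with smallest count 10 and total 15, TMM factors, quasi-likelihood test, all 4 groups in 1 fit, Benjamini-Hochberg adjustment over 12742 genes, threshold 0.05). Log2 CPM used a prior count of 2. Genes of like length lay between the 10th and 90th percentile of the tested members' length. The length offset was a spline with 5 degrees of freedom per specimen. Alternatives were DESeq2 1.42.0, limma 3.58.1 (voom with quality weights), other scaling factors and count filters, length offsets, Rn45s or hemoglobin genes left out, only the groups compared, and each specimen left out. Scripts were tested on simulated data. Exact binomial intervals have a level of 95%, and a count of 0 allows up to 3 counts.

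The members and lists were chosen with earlier results of these data known, and the offset on transcript length after the data were seen. Genes were named by rule: up to 8 members per direction with the largest difference among those past the threshold (or the 3 with the smallest p where fewer than 3 passed), the 3 highest and lowest per length, paralogs ending in l, and Rplp0, Rplp1, Rplp2, Rpsa, Rps6, Rps14, Rps19, Rpl5, Rpl11, Rpl22 and Rpl3. Of genes outside the family, Fau, Rack1 and Rn45s were named, and 1 other is not reported here. Other members were named after their values were seen.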

Additional observations from a re-analysis of the deposited data

Results flagged for a closer look

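The interaction of the inhibitors differed from 0 for 70 of the 79 tested ribosomal protein genes, by a test of the difference itself (the interaction term of the edgeR quasi-likelihood test, adjusted p at most 0.05), all of them negative, as were 15.6% of all tested genes and 52.3% of those of like length. Among those called, the largest were Rplp2 at -4.76, Rpl38 at -4.70, Rps21 at -4.52, Rps12 at -4.46, Rps14 at -4.32, Rpl35a at -4.23, Rpl41 at -4.17 and Rplp1 at -3.97 on the log2 scale. Without BTK inhibitor specimen 5 these 8 lay between -2.67 and -2.53. Then 72 members were called, beside 14.3% of all tested genes and 49.5% of those of like length. None was called with the table length offset, or without any one of vehicle 2, PI3K inhibitor 8 or 9, or combination 11 or 12.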

How the results depend on the processing

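Every member median kept its sign under all alternatives run. For the BTK inhibitor against vehicle, DESeq2 called 52 members and limma voom 65, and the median was 0.71 with library totals alone, 0.39 with the length offset, 0.42 with that offset fitted on other genes, 0.26 with it and without specimen 5, and 0.50 with the transcript length offset without specimen 5. For the PI3K inhibitor against vehicle, DESeq2 called 72 members among 3221 genes in either direction, and limma voom 73 among 4771. A fit of only the groups compared called 73 among 4057. Library totals alone called 0, as did the length offset fitted on all or on other genes, and no gene of the table was called there. The length offset without specimen 5 called 27, and the transcript length offset 0 (68 without specimen 5). Medians of this comparison with the length offset were 0.42, 0.44 (fitted on other genes) and 0.43 (without specimen 5). With transcript length the median was 0.87 in both cases. For the combination against vehicle limma voom called 1, which was lower, among 1241 genes in either direction. For the combination against the BTK inhibitor DESeq2 called 29 and limma voom 69, with medians of -0.39 (library totals), -0.26, -0.28 and -0.15 (length offsets in the same order) and -0.34 (transcript length without specimen 5). For the combination against the PI3K inhibitor DESeq2 called 43 among 1226 genes in either direction, and limma voom 75 among 5337. A fit of only the groups compared called 74 among 4004. The medians in this comparison were -0.32, -0.34 and -0.33 with length offsets. The interaction was called for 0 members with the length offset fitted on all or on other genes and 5 without specimen 5, with medians of -1.41 (library totals), -0.67, -0.71, -0.57, -1.50 (transcript length) and -1.26 (the same without specimen 5). Library totals alone moved the median of all genes by -0.34 for the BTK inhibitor and -0.25 for the PI3K inhibitor against vehicle. Rpl4 in the combination against the BTK inhibitor turned from 0.14 to -0.13 with limma voom, -0.085 with the transcript length offset without specimen 5 and -0.17 without specimen 5 alone (-0.17 to 0.34 with 1 specimen left out). The median of genes of like length in the combination against vehicle turned to -0.38 for the 87 of like level. With members and genes of like length as the total, the shares were 20.7%, 28.3%, 29.8% and 26.9% in the order of the groups. Leaving out 1 specimen at a time gave 0 to 59 called and medians of 0.79 to 1.57 for the BTK inhibitor, 0 to 74 and 1.22 to 1.65 for the PI3K inhibitor, 0 to 0 and 0.06 to 0.35 for the combination, 0 to 52 and -1.34 to -0.55 for the combination against the BTK inhibitor, 0 to 72 and -1.41 to -0.999 against the PI3K inhibitor, and 0 to 73 and -2.72 to -1.94 for the interaction. Why values changed between these settings was not tested. No paired analysis was possible because the groups share no specimen number.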
